A study of Mus musculus with 12 samples.

Results

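The genes described here are 34 genes of sterol and fatty acid synthesis and its regulation, measured by RNA-Seq in murine jejunal enteroids. They were chosen by name, from the enzymes of the mevalonate, cholesterol and fatty acid pathways and the proteins that control the sterol regulatory element binding proteins (SREBPs), and all 34 were found among the 18929 genes listed for these cultures. Enteroids are organ-like cultures of intestinal epithelium grown from isolated crypts. The 12 libraries came from jejunal crypts of villin-Cre control, Hdac1-deficient and Hdac2-deficient mice, with 4 libraries per group, and all cultures were kept for 5 days in ENR medium. HDAC1 and HDAC2 are class I histone deacetylases, and the series compared each deletion with control. The mutants carried floxed Hdac1 or Hdac2 alleles recombined by a Cre transgene under the villin promoter, which is active in intestinal epithelial cells. The paper's results call the controls villin-Cre and its methods call them wild-type, so whether controls shared the transgene is not clear. The mice had a mixed C57BL/6J, 129SV and CD1 background. The methods name 1 mouse per genotype as the source of crypts, so nothing shows that the 4 libraries within a group stem from different animals. The p-values then measure only the spread between these libraries, and the genotype cannot be told apart from the mouse and the enteroid line.

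Cells build cholesterol from acetyl-CoA through mevalonate, isoprenoid units, squalene and lanosterol, and build saturated fatty acids from the same acetyl-CoA with malonyl-CoA and NADPH. SREBP-2, encoded by Srebf2, mainly drives the sterol genes, and SREBP-1, encoded by Srebf1, mainly the fatty acid genes. SCAP carries both proteins to the Golgi for cleavage when sterols are low, and INSIG1 and INSIG2 hold SCAP back when sterols are high, while Insig1 is itself an SREBP target. The small intestine is an active site of sterol synthesis, and its absorptive cells use fatty acids and cholesterol to assemble chylomicrons.

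Promoter sequences of 6 members are shown. Among the members with a promoter entry, Hmgcs1, Msmo1 and Srebf2 are those with the sterol element core, the motif that SREBPs read. Mvd, Cyp51 and Insig1 are among the members that differed most between the mutants. Of the 34 members, 27 were matched to promoter entries of RefSeq (GRCm38.p6), which run from 250 bases before to 50 bases after a start site. The other 7, Fdps, Fdft1, Sqle, Stard4, Scd1, Scd2 and Fads1, had no entry and were not searched. The core of the sterol regulatory element was searched as TCACNCCA, the NF-Y box as CCAAT and the Sp1-type box as GGGCGG, each on both strands. The 6 promoters lie at chr13:119690101-119690400 (Hmgcs1, plus strand), chr8:64733529-64733828 (Msmo1, minus strand), chr15:82147019-82147318 (Srebf2, plus strand), chr8:122443373-122443672 (Mvd, minus strand), chr5:4104648-4104947 (Cyp51, minus strand) and chr5:28071162-28071461 (Insig1, plus strand). They are written 5′ to 3′ on the gene's strand, and the capitals mark the sterol element core and the CCAAT box or its reverse complement ATTGG.
Hmgcs1: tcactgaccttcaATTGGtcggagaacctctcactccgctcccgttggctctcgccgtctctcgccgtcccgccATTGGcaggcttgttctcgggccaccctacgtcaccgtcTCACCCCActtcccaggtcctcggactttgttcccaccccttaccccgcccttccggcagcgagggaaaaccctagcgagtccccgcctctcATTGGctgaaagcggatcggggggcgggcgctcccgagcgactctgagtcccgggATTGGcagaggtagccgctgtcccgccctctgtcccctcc
Msmo1: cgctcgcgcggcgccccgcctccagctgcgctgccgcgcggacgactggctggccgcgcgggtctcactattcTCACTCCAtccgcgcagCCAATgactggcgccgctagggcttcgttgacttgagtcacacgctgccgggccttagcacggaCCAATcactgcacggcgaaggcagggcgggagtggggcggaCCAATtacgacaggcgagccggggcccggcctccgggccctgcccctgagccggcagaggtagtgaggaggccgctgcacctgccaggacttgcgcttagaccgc
Srebf2: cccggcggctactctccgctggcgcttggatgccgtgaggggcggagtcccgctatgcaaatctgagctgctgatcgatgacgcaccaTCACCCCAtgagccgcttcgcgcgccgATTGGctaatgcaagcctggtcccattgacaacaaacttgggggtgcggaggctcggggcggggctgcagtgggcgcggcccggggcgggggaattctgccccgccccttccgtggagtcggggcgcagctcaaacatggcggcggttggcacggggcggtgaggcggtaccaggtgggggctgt
Mvd: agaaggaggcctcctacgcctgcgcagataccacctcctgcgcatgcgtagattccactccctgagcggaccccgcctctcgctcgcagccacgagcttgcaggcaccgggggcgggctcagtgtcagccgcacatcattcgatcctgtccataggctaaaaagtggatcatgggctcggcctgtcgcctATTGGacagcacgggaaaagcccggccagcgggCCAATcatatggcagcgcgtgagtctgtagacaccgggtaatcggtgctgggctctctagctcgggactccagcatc
Cyp51: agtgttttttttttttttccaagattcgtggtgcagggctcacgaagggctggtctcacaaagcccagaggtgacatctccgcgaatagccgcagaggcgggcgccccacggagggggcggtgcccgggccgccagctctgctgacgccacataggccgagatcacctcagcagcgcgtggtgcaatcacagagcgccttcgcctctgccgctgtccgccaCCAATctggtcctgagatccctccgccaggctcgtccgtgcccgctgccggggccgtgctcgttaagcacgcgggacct
Insig1: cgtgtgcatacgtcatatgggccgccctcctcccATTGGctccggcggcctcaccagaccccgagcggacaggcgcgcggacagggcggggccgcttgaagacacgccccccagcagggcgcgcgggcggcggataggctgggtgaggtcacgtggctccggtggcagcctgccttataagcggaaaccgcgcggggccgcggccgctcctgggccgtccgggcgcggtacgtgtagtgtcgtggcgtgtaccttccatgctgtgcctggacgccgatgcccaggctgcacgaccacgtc
The sterol element core stood at -137 in Hmgcs1, at -177 in Msmo1 and at -162 in Srebf2, counted from the start site to the first base of the match. It was present in 3 of the 27 matched members (11.1%), against 4.97% of all 27025 genes with an entry. The CCAAT box was present in 22 of the 27 (81.5%), against 41.1% of all genes, and GGGCGG in 23 of the 27 (85.2%), against 38.2%. Mvd, Cyp51 and Insig1 held a CCAAT box and no match to the exact element core in this window. The largest number of CCAAT matches, 5, was in the single promoter entry of Mvk. These are matches of letters, and no binding was measured in these libraries.

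All 34 members were abundant. The smallest count of any member in any library was 1401 reads, and the libraries held 20693200 to 30658628 counts on genes. Levels are given as CPM (counts relative to the library total), scaled by TMM factors that lay between 0.9808 and 1.0201. Per kilobase of the principal transcript, control levels were highest for the stearoyl-CoA desaturase gene Scd2 at 792 CPM per kb, followed by Insig1 at 299, Scd1 at 256 and Hmgcs1 at 237. The lowest was the acetyl-CoA carboxylase gene Acaca, whose group means lay between 9.48 and 10.8 CPM per kb, and Scap had 16.9 in control. In both mutants Scd2 stayed the most abundant member per kilobase, at 468 in Hdac1-deficient and 601 CPM per kb in Hdac2-deficient enteroids, and Insig1 stayed the next at 282 and 436.

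The libraries carried their labelled deletions. Hdac1 lay between 87.57 and 94.44 CPM in control, 68.78 and 78.56 in Hdac2-deficient and 3.376 and 5.094 CPM in Hdac1-deficient libraries. Hdac2 lay between 131.6 and 141.2 CPM in control, 106.5 and 114.4 in Hdac1-deficient and 73.2 and 78.82 CPM in Hdac2-deficient libraries, so a large part of the Hdac2 transcript was still counted there. Epithelial identity was plain: the 6 epithelial markers summed to at least 4590 CPM in every library, and the summed markers of fibroblasts and of endothelium stayed at or under 0.508 CPM. Markers of intestinal cell types differed between the groups. The 6 stem cell markers all fell in both mutants, from a summed 4640 to 4770 CPM in control to 2780 to 3220 in Hdac1-deficient and 2490 to 2720 in Hdac2-deficient libraries. The 9 enterocyte markers all rose in both, from 9180 to 9810 CPM to 18100 to 20600 and 14400 to 16200, and the 7 goblet cell markers all rose in Hdac2-deficient libraries, from 1890 to 2110 CPM to 3000 to 3230, while in Hdac1-deficient libraries 3 rose and 2 fell and the sum was 1940 to 2080 CPM. Of the 6 proliferation markers 1 rose and 4 fell in both mutants. Of the 6 Paneth cell markers tested 1 rose and 1 fell in Hdac1 and 4 rose in Hdac2. Of the 7 enteroendocrine markers 5 rose in Hdac1 and 4 rose and 1 fell in Hdac2. Over all genes tested, 32.7% rose and 31.9% fell in Hdac1, and 31.4% rose and 30.9% fell in Hdac2, so calls in either direction were common. Tuft cell markers summed to at most 6.51 CPM, with 2 of the 3 tested lower in Hdac2 than in control, and immune markers to at most 1.91, and the 3 adipocyte markers were not listed. Their part in the changes below was not tested, and in bulk RNA a change in the number of cells of a type and a change in RNA per cell cannot be told apart. Control replicate 1 stood farther from control replicates 2 and 3 than these from each other (mean chi-square per gene of 8.18 and 8.04 against 1.52), and the member calls that change without it are named below.

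The median of the members was below control in one mutant and above it in the other. Changes are given as log2 fold changes with their standard error (SE) from edgeR's quasi-likelihood test, and "rose" and "fell" mean an adjusted p no larger than 0.05 (Benjamini-Hochberg, over all genes tested). In Hdac1-deficient against control enteroids, 10 of the 34 members rose, 18 fell and 6 did not pass. Over all 14246 genes tested there, 32.7% rose and 31.9% fell, and 10.6% changed by more than 2-fold, which no member did. In Hdac2-deficient against control enteroids, 22 members rose, 6 fell and 6 did not pass, where 31.4% of 14007 genes rose, 30.9% fell and 8.3% changed by more than 2-fold. Me1 and Fads1 were the members past 2-fold. In the direct comparison, 28 members were lower in the Hdac1- than in the Hdac2-deficient libraries, 5 were higher and 1, Elovl6, did not pass, against 23.7% lower and 22.3% higher of 14510 genes, with 5.62% past 2-fold and no member among them. The median log2 fold change over the members was -0.12 for Hdac1 and 0.20 for Hdac2 against control, and -0.32 for Hdac1 against Hdac2, where the medians of all genes tested were -0.004, -0.004 and 0.005. Both comparisons with control share the same 4 control libraries. Among the 3651 genes at least as abundant as the lowest member (a mean of 65.5 CPM), 32.9% rose and 38.2% fell in Hdac1, 39.7% rose and 32.6% fell in Hdac2, and 19.3% were higher and 35.3% lower in the direct comparison. The most frequent pattern, in 9 members, was lower in Hdac1, higher in Hdac2 and lower in the direct comparison, and a further 7 rose in both mutants but more in Hdac2. Libraries did not overlap between the groups for 24 members in Hdac1 against control, 27 in Hdac2 against control and 31 in Hdac1 against Hdac2, where 58.5%, 56.1% and 41.8% of the tested genes in both tables did not overlap.

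**Figure D1:**
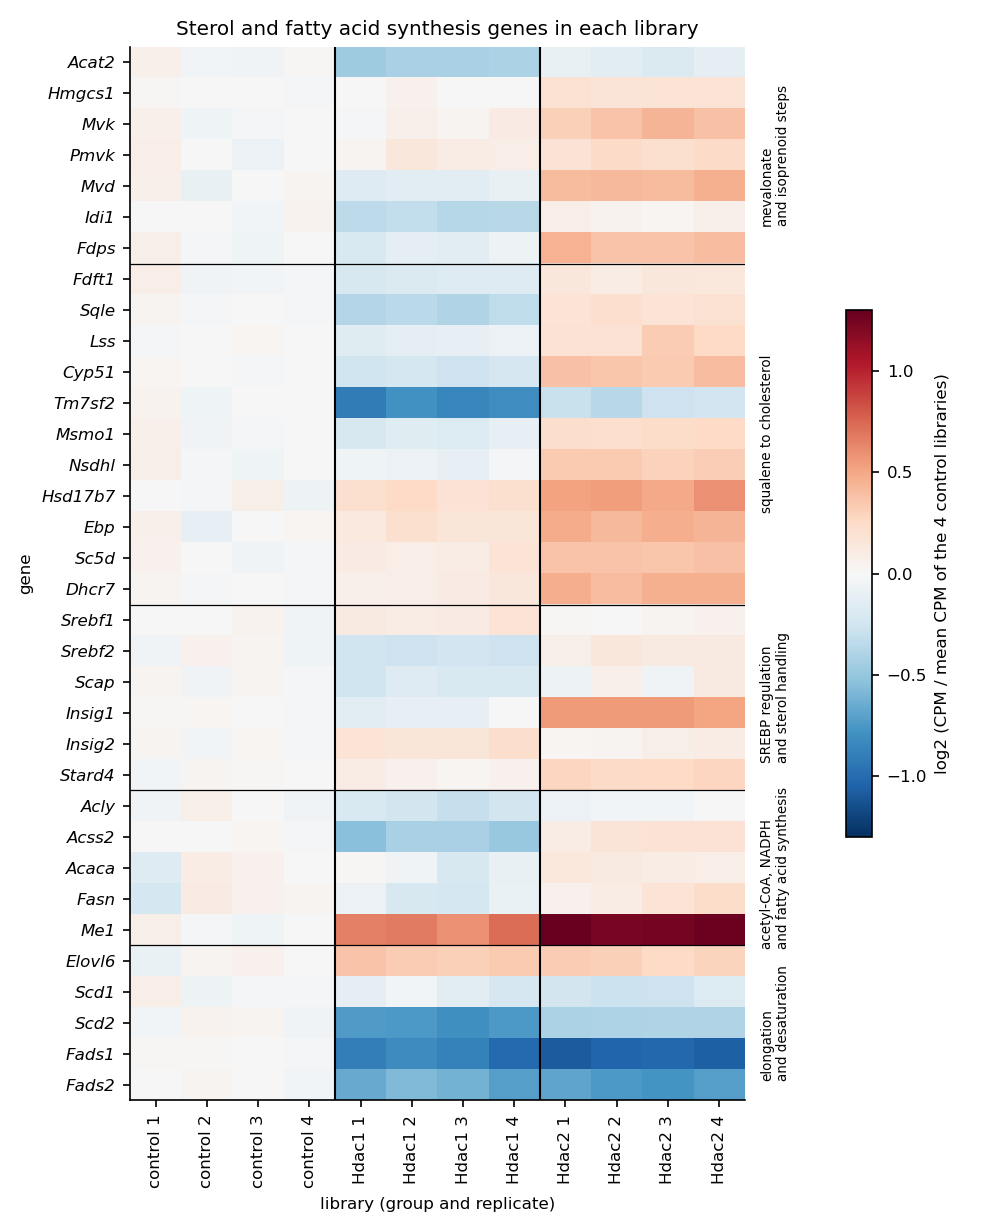
Heat map of the 34 members (rows, by role) in the 12 libraries (columns), coloured by the log2 ratio of CPM to the mean of the 4 control libraries. The cholesterol pathway rows at the top are mostly blue in the 4 Hdac1 libraries and red in the 4 Hdac2 libraries, while Me1 is red and Scd2, Fads1 and Fads2 are blue in both mutants.

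The 7 genes from acetyl-CoA to farnesyl diphosphate separated the mutants most clearly at Mvd and Fdps. Against control, 1 of the 7 rose and 4 fell in Hdac1-deficient enteroids, and 5 rose and 1 fell in Hdac2-deficient enteroids. All 7 were lower in Hdac1- than in Hdac2-deficient libraries, by -0.13 to -0.57. Mvd encodes mevalonate diphosphate decarboxylase, which makes isopentenyl diphosphate (chr8:122433601-122443422). It was counted at 158.9, 141.7, 151.5 and 156.0 CPM in control, 135.6, 136.8, 137.0 and 141.9 in Hdac1-deficient and 201.8, 203.9, 202.3 and 209.7 CPM in Hdac2-deficient libraries. All Hdac2-deficient libraries lay above all others, and the lowest control library fell just inside the range of the Hdac1-deficient ones. The log2 fold change was -0.13 ± 0.04 in Hdac1 (edgeR adjusted p = 0.0037), 0.44 ± 0.03 in Hdac2 (adjusted p = 2.6e-10) and -0.57 ± 0.03 between the mutants (adjusted p = 1.2e-13).

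Fdps, the farnesyl diphosphate synthase gene (chr3:89093588-89101959), was counted at 259.2, 241.4, 236.7 and 246.3 CPM in control, 214.6, 224.8, 224.0 and 234.1 in Hdac1-deficient and 336.2, 316.9, 317.0 and 325.8 CPM in Hdac2-deficient libraries. The 3 groups did not overlap, with control in the middle. It fell by 0.12 ± 0.03 on the log2 scale in Hdac1 (edgeR adjusted p = 0.0053) and rose by 0.41 ± 0.03 in Hdac2 (adjusted p = 3.5e-10). Acat2, which condenses acetyl-CoA units, fell in both mutants, by 0.42 ± 0.03 and 0.12 ± 0.03. Its transcript is 98.7% identical to one of Tcp1 over 445 bases and 97.7% identical to one of Acat3 over 1477, where reads could be shared. Tcp1 had a mean of 459 CPM in control and log2 fold changes of -0.26 in Hdac1 and -0.23 in Hdac2. Acat3 had 2.29 CPM in control and changes of -0.46 and -0.40. Idi1, the isopentenyl diphosphate isomerase, fell by 0.33 ± 0.03 in Hdac1 and stood at 0.07 ± 0.03 in Hdac2 (edgeR adjusted p = 0.053, and 0.045 without Hdac2 replicate 3). Hmgcs1, the HMG-CoA synthase gene whose promoter holds the sterol element core, stood at 0.03 ± 0.03 in Hdac1 (95% interval -0.04 to 0.09) and rose by 0.19 ± 0.03 in Hdac2. The kinases Mvk and Pmvk rose by 0.38 ± 0.04 and 0.23 ± 0.04 in Hdac2. In Hdac1, Mvk stood at 0.06 ± 0.04 and Pmvk at 0.10 ± 0.04 (edgeR adjusted p = 0.025), and the Pmvk call was lost without control replicate 2, 3 or 4 (adjusted p = 0.051, 0.11 and 0.066) or Hdac1 replicate 2 (0.089).

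Of the 11 genes from squalene to cholesterol, 10 rose and 1 fell after loss of Hdac2, and the median change was 0.33. After loss of Hdac1, 4 rose and 6 fell, and the median was -0.11. All 11 were lower in Hdac1- than in Hdac2-deficient libraries, by -0.26 to -0.62. Along the pathway, the Hdac1 changes were split: the 6 genes from Fdft1 to Msmo1 fell, and the last 4, Hsd17b7, Ebp, Sc5d and Dhcr7, rose in both mutants. This split was noticed in the values and was not set beforehand.

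Cyp51 encodes lanosterol 14-alpha demethylase, the first enzyme after the sterol ring is formed (chr5:4081145-4104746). It was counted at 686.4, 679.9, 666.9 and 673.7 CPM in control, 564.2, 575.7, 562.9 and 580.8 in Hdac1-deficient and 883.2, 869.7, 858.9 and 893.4 CPM in Hdac2-deficient libraries. The groups did not overlap. The log2 fold change was -0.23 ± 0.03 in Hdac1 (edgeR adjusted p = 1.2e-06), 0.38 ± 0.03 in Hdac2 (adjusted p = 1.2e-10) and -0.62 ± 0.03 between the mutants (adjusted p = 7.1e-16), the largest difference between the mutants among the 18 cholesterol pathway enzymes.

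Sqle encodes squalene epoxidase, which carries out the first oxygenation of the pathway (chr15:59315077-59331192). Its control libraries held 412.2, 393.5, 401.7 and 396.0 CPM, the Hdac1-deficient 308.0, 314.2, 304.9 and 318.4, and the Hdac2-deficient 452.8, 467.4, 452.7 and 458.3 CPM. Again control lay between the mutants without overlap. It fell by 0.35 ± 0.03 in Hdac1 (edgeR adjusted p = 4.1e-09) and rose by 0.20 ± 0.03 in Hdac2 (adjusted p = 2.1e-06). The same order was found for Fdft1 (squalene synthase), Lss (lanosterol synthase) and Msmo1 (a C4 sterol methyl oxidase), with log2 fold changes of -0.17, -0.11 and -0.15 in Hdac1 and of 0.14, 0.25 and 0.24 in Hdac2. The 3′ end of Fdft1 overlaps the protease gene Ctsb on the opposite strand by 774 bases. The mean level of Ctsb was 533 CPM in control, 520 in Hdac1 and 657 in Hdac2, with log2 fold changes of -0.02 and 0.31. Whether reads of Ctsb were counted for Fdft1 was not tested.

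Tm7sf2, a sterol C14 reductase gene (chr19:6062821-6068373), was the exception. Its control libraries held 152.8, 142.0, 148.5 and 147.0 CPM, the Hdac1-deficient 78.5, 85.42, 81.9 and 84.21, and the Hdac2-deficient 120.4, 114.7, 122.5 and 124.0 CPM. Both mutants lay below control, and Hdac1 below Hdac2, without overlap. It fell by 0.83 ± 0.04 in Hdac1 (edgeR adjusted p = 1.0e-13) and by 0.28 ± 0.03 in Hdac2 (adjusted p = 1.4e-07). Tm7sf2 shares 532 bases of its span with Vps51 on the same strand, and the counting program's rule for shared bases is not given in the sources used here. The mean level of Vps51 was 59.6 CPM in control, 35.8 in Hdac1 and 38.6 in Hdac2.

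Hsd17b7, a 3-keto sterol reductase gene (chr1:169949535-169969241), rose most among the 18 enzymes. Control libraries held 87.67, 86.9, 92.38 and 83.46 CPM, Hdac1-deficient 101.1, 104.9, 99.71 and 100.9, and Hdac2-deficient 126.0, 127.9, 123.3 and 131.9 CPM. The groups stood in the order control, Hdac1, Hdac2 without overlap. It rose by 0.23 ± 0.04 in Hdac1 (edgeR adjusted p = 2.3e-05) and by 0.55 ± 0.04 in Hdac2 (adjusted p = 1.7e-11). The isomerase gene Ebp, the desaturase gene Sc5d and the final reductase gene Dhcr7 followed the same order, with 0.18, 0.13 and 0.11 in Hdac1 and 0.47, 0.38 and 0.46 in Hdac2. Nsdhl, which removes the C4 carboxyl group, stood at -0.05 ± 0.03 in Hdac1 (95% interval -0.12 to 0.02) and rose by 0.33 ± 0.03 in Hdac2.

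Over both stretches of the pathway, 5 of the 18 enzymes rose and 10 fell in Hdac1-deficient enteroids, and 15 rose and 2 fell in Hdac2-deficient enteroids. All 18 were lower in Hdac1- than in Hdac2-deficient libraries, with a median of -0.35 and a largest fold of 1.54.

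**Figure D2:**
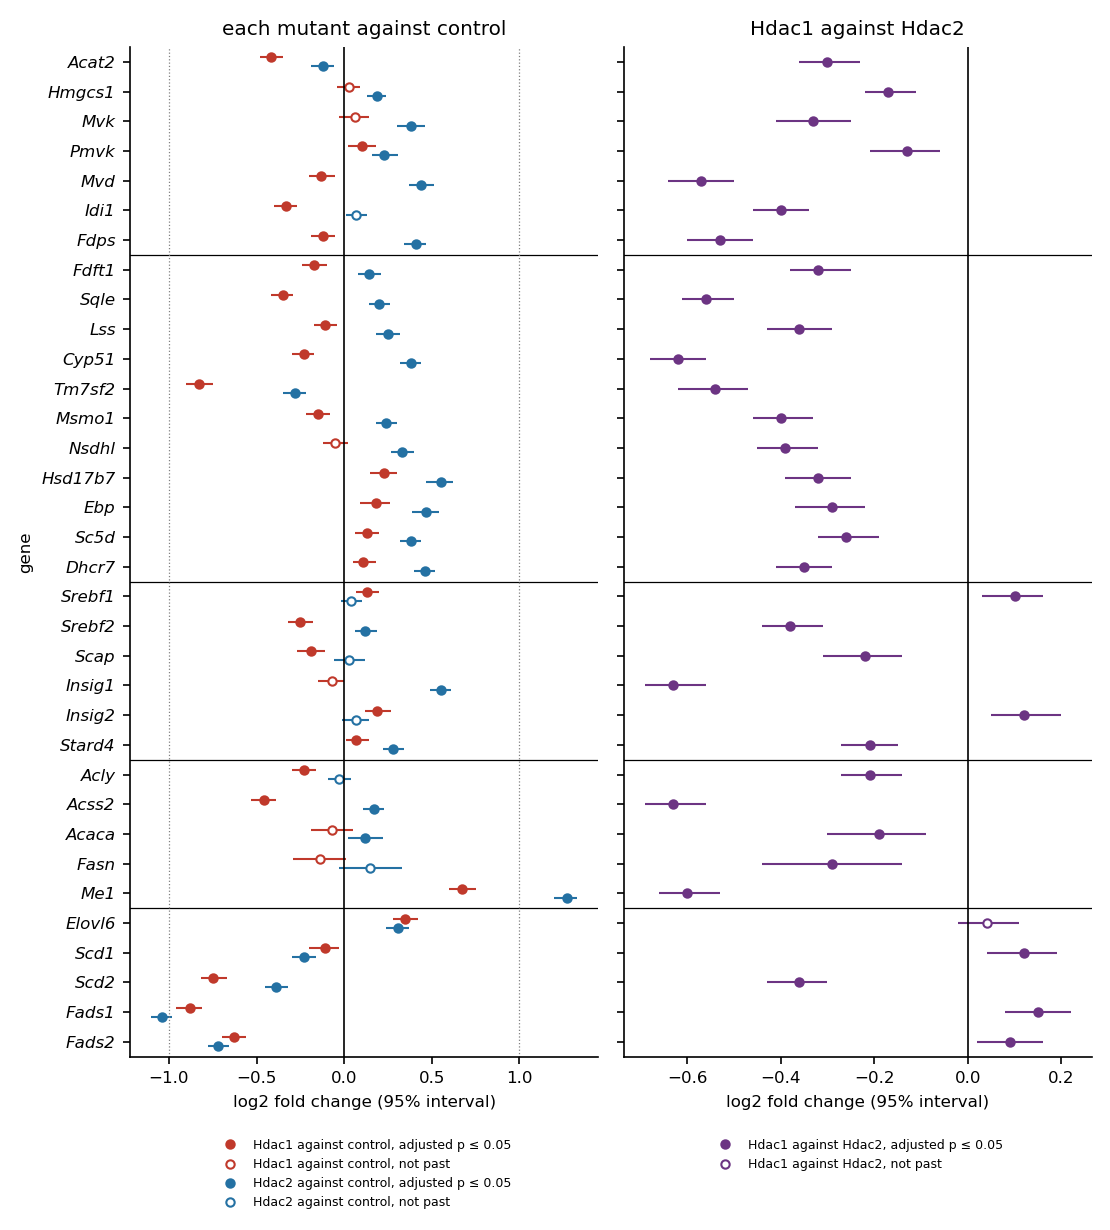
Log2 fold changes of the 34 members with 95% intervals, against control for both mutants (left) and for Hdac1 against Hdac2 (right), with filled points where the adjusted p did not exceed 0.05 and dotted lines at 2-fold. The 18 cholesterol pathway genes in the upper 2 blocks all lie below 0 on the right, between -0.13 and -0.62.

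Among the 6 genes of SREBP regulation and sterol handling, Srebf2 and Srebf1 moved apart. Srebf2 (chr15:82147181-82205379) was counted at 413.4, 443.1, 435.8 and 410.8 CPM in control, 357.0, 353.1, 357.1 and 354.3 in Hdac1-deficient and 449.0, 470.5, 463.1 and 461.2 CPM in Hdac2-deficient libraries. The groups did not overlap, and control was in the middle. Srebf2 fell by 0.25 ± 0.03 in Hdac1 (edgeR adjusted p = 1.6e-06), rose by 0.12 ± 0.03 in Hdac2 (adjusted p = 0.0018) and was lower in Hdac1 than in Hdac2 by -0.38 ± 0.03 (adjusted p = 8.0e-11). Its direction in each comparison was that of most of the cholesterol enzymes.

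Srebf1 (chr11:60199089-60222581) was counted at 197.7, 199.1, 205.8 and 193.4 CPM in control, 215.2, 213.2, 213.7 and 224.9 in Hdac1-deficient and 201.6, 199.2, 203.9 and 206.9 CPM in Hdac2-deficient libraries. Hdac1-deficient libraries lay above the rest, and Hdac2-deficient libraries overlapped control. Srebf1 rose by 0.13 ± 0.03 in Hdac1 (edgeR adjusted p = 9.6e-04), stood at 0.04 ± 0.03 in Hdac2 (95% interval -0.02 to 0.10) and was higher in Hdac1 than in Hdac2 by 0.10 ± 0.03 (adjusted p = 0.0097). Gene counts do not separate the SREBP-1a and SREBP-1c transcripts, and Srebf1 had more than 1 promoter entry.

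Insig1, the sterol-dependent anchor of SCAP (chr5:28071363-28078662), was counted at 815.8, 820.3, 802.1 and 791.7 CPM in control, 733.6, 751.7, 749.1 and 811.1 in Hdac1-deficient and 1183, 1183, 1187 and 1150 CPM in Hdac2-deficient libraries. Hdac2-deficient libraries stood above the others, and Hdac1 replicate 4 alone reached the control range. Insig1 rose by 0.55 ± 0.03 in Hdac2 (edgeR adjusted p = 3.9e-13) and stood at -0.07 ± 0.03 in Hdac1 (adjusted p = 0.072), or -0.10 without Hdac1 replicate 4 (adjusted p = 0.0086). It also passed in Hdac1 with library size alone (edgeR adjusted p = 0.049), without a filter on low counts (0.035), with all 12 libraries in 1 fit (0.022) and with chromosomes X, Y and 19 left out (0.039). The difference between the mutants was -0.63 ± 0.03 (adjusted p = 7.5e-15). Insig2, the paralog of Insig1, moved otherwise: it rose by 0.19 ± 0.04 in Hdac1, stood at 0.07 ± 0.03 in Hdac2 and was higher in Hdac1 than in Hdac2 by 0.12 ± 0.03.

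Scap fell by 0.19 ± 0.04 in Hdac1 and stood at 0.03 ± 0.04 in Hdac2 (95% interval -0.06 to 0.12). Stard4, a cytosolic sterol carrier and SREBP-2 target, rose by 0.28 ± 0.03 in Hdac2. In Hdac1 it rose by 0.07 ± 0.03 (edgeR adjusted p = 0.048). That call was lost without control replicate 1, 3 or 4 (adjusted p = 0.11, 0.066 and 0.13) or Hdac1 replicate 1 or 2 (0.14 and 0.082), and when low counts were not filtered (0.098), with library size alone (0.056), all 12 libraries in 1 fit (0.06) or chromosomes X, Y and 19 left out (0.094).

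**Figure D3:**
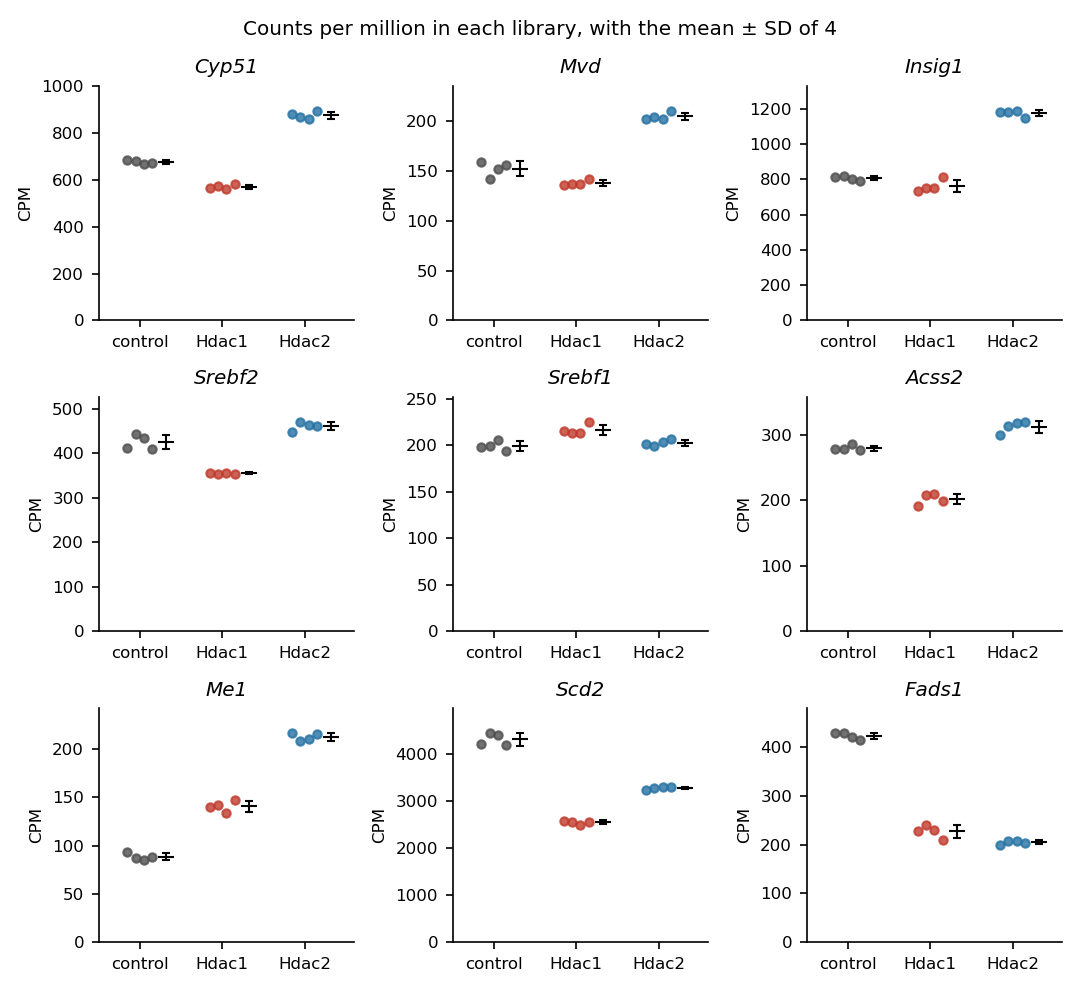
CPM of 9 members in each library (points, 4 per group) with the mean ± SD at the right of each group, on axes that start at 0. In Cyp51, Srebf2 and Acss2 the control points lie between the lower Hdac1 and the higher Hdac2 points, while Me1 stands above and Scd2 and Fads1 below control in both mutants.

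The 5 genes that supply acetyl-CoA and NADPH and build the fatty acid chain were all lower in Hdac1- than in Hdac2-deficient enteroids, by -0.19 to -0.63. Against control, 1 rose and 2 fell in Hdac1, and 3 rose and none fell in Hdac2. Me1 encodes the cytosolic malic enzyme, a source of NADPH for lipid synthesis (chr9:86581371-86695953). It was counted at 93.53, 87.18, 85.45 and 88.63 CPM in control, 139.4, 141.5, 133.9 and 147.1 in Hdac1-deficient and 216.1, 208.0, 210.0 and 214.9 CPM in Hdac2-deficient libraries. The groups stood in the order control, Hdac1, Hdac2 with wide gaps. Me1 rose by 0.67 ± 0.04 in Hdac1 (edgeR adjusted p = 4.6e-12) and by 1.27 ± 0.03 in Hdac2 (adjusted p = 3.0e-18), a 2.41-fold change and the largest of any member.

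Acss2, which makes nuclear and cytosolic acetyl-CoA from acetate (chr2:155517948-155585724), was counted at 277.3, 278.4, 285.0 and 276.2 CPM in control, 191.7, 208.2, 208.8 and 198.5 in Hdac1-deficient and 298.7, 313.2, 317.4 and 318.9 CPM in Hdac2-deficient libraries. Control lay between the mutants without overlap. Acss2 fell by 0.46 ± 0.03 in Hdac1 (edgeR adjusted p = 2.9e-10) and rose by 0.17 ± 0.03 in Hdac2 (adjusted p = 3.3e-05). The difference between the mutants was -0.63 ± 0.03 (adjusted p = 7.5e-15). Its gene span overlaps Gss on the opposite strand, whose mean level was 128 CPM in control, 117 in Hdac1 and 164 in Hdac2. The library kit marks strand, but the setting used in counting is not given in the sources used here.

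Acly, the ATP citrate lyase that makes acetyl-CoA from citrate, fell by 0.23 ± 0.04 in Hdac1 and stood at -0.03 ± 0.03 in Hdac2 (95% interval -0.09 to 0.04). Fasn, the fatty acid synthase, and Acaca had the widest intervals of all members. Fasn stood at -0.14 ± 0.07 in Hdac1 (edgeR adjusted p = 0.093) and 0.15 ± 0.08 in Hdac2 (adjusted p = 0.13). Control replicate 1 held 369.2 CPM of Fasn where the other control libraries held 443.0 to 463.8, and without it Fasn was -0.21 in Hdac1 (edgeR adjusted p = 3.7e-05). With DESeq2 on all libraries the adjusted p was 0.048. Fasn was lower in Hdac1 than in Hdac2 by -0.29 ± 0.07 (edgeR adjusted p = 0.0041), a comparison without control libraries in the contrast. Acaca stood at -0.07 ± 0.06 in Hdac1 (edgeR adjusted p = 0.30), and at -0.13 without control replicate 1 (adjusted p = 0.017). It rose by 0.12 ± 0.05 in Hdac2 (edgeR adjusted p = 0.035), a call that was lost without control replicate 1 or 4 (0.10 and 0.074) or any 1 Hdac2 library (0.051 to 0.086), with library size alone (0.13), all 12 libraries in 1 fit (0.066) or chromosomes X, Y and 19 left out (0.057). The span of Acaca shares 19126 bases with Gm11437 on the opposite strand, whose mean level was 34.9 CPM in control, 42.8 in Hdac1 and 58.2 in Hdac2.

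The 5 genes of elongation and desaturation each moved the same way in both mutants. Elovl6, which elongates palmitate, rose in both, by 0.35 ± 0.03 and 0.31 ± 0.03, and was the member that did not differ past the threshold between the mutants (0.04 ± 0.03, 95% interval -0.02 to 0.11). The 4 desaturase genes fell in both. Fads1, the delta-5 desaturase of long polyunsaturated fatty acids (chr19:10182888-10196877), was counted at 427.3, 427.7, 419.7 and 414.5 CPM in control, 227.2, 240.4, 230.4 and 209.3 in Hdac1-deficient and 199.5, 207.4, 207.9 and 202.3 CPM in Hdac2-deficient libraries. Both mutants lay far below control, and the lowest Hdac1 library was just above the highest Hdac2 library. Fads1 fell by 0.88 ± 0.04 in Hdac1 (edgeR adjusted p = 7.9e-14) and by 1.04 ± 0.03 in Hdac2 (adjusted p = 1.0e-17).

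Its neighbour Fads2, the delta-6 desaturase (chr19:10062765-10101746), was counted at 358.7, 366.6, 356.6 and 350.2 CPM in control, 227.4, 240.4, 233.5 and 218.5 in Hdac1-deficient and 222.7, 213.9, 208.9 and 218.6 CPM in Hdac2-deficient libraries. The mutants overlapped each other and lay clear of control. Fads2 fell by 0.63 ± 0.03 in Hdac1 and by 0.72 ± 0.03 in Hdac2 (edgeR adjusted p = 3.3e-12 and 9.8e-15).

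Scd2, a delta-9 desaturase that makes monounsaturated fatty acids (chr19:44293674-44306864), was counted at 4214, 4452, 4413 and 4199 CPM in control, 2585, 2567, 2488 and 2569 in Hdac1-deficient and 3248, 3276, 3297 and 3296 CPM in Hdac2-deficient libraries. The groups did not overlap, with Hdac1 lowest. Scd2 fell by 0.75 ± 0.04 in Hdac1 and by 0.39 ± 0.03 in Hdac2 (edgeR adjusted p = 4.3e-13 and 7.1e-10). Scd1, its neighbour, fell by 0.11 ± 0.04 in Hdac1 (edgeR adjusted p = 0.021) and by 0.23 ± 0.03 in Hdac2. Without control replicate 1 or Hdac1 replicate 4 the Scd1 call in Hdac1 was lost (0.054 and 0.079). The transcripts of Scd1 and Scd2 are 95.5% identical over 623 bases, where reads could be shared. The small excess of Hdac1 over Hdac2 for Scd1 and Fads2 (0.12 ± 0.04 and 0.09 ± 0.03) was lost without Hdac1 replicate 2 (edgeR adjusted p = 0.053 and 0.074) or Hdac2 replicate 2 (0.051 and 0.061), which took the members higher in Hdac1 from 5 to 3. For Fads2 it was also lost without Hdac1 replicate 3 (0.065) or Hdac2 replicate 3 (0.092).

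The members that fell in both mutants lay mostly on chromosome 19. Tm7sf2, Scd1, Scd2, Fads1 and Fads2 are its 5 members, and all 5 fell in both comparisons. The other protein-coding genes of chromosome 19 had a median of -0.53 on the log2 scale in Hdac1 (466 genes, 75.5% of them lower) and -0.52 in Hdac2 (456 genes, 77.6% lower), against 0.01 and 0.02 on the other autosomes. In the direct comparison the median of chromosome 19 was 0.02. Within 1 Mb on each side, the other protein-coding genes had medians of -0.58 and -0.57 around Tm7sf2, -0.41 and -0.35 around Scd2 and -0.58 and -0.48 around Fads1. In both mutants Fads1, Fads2 and Scd2 fell further than the medians around them, and Scd1 less. The gap was small for Fads2 in Hdac1 (-0.63 against -0.58) and for Scd2 in Hdac2 (-0.39 against -0.35). Tm7sf2 fell further than the median around it in Hdac1 (-0.83 against -0.58) and less in Hdac2 (-0.28 against -0.57). The part of the chromosome in the change of each member was not tested.

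**Figure D4:**
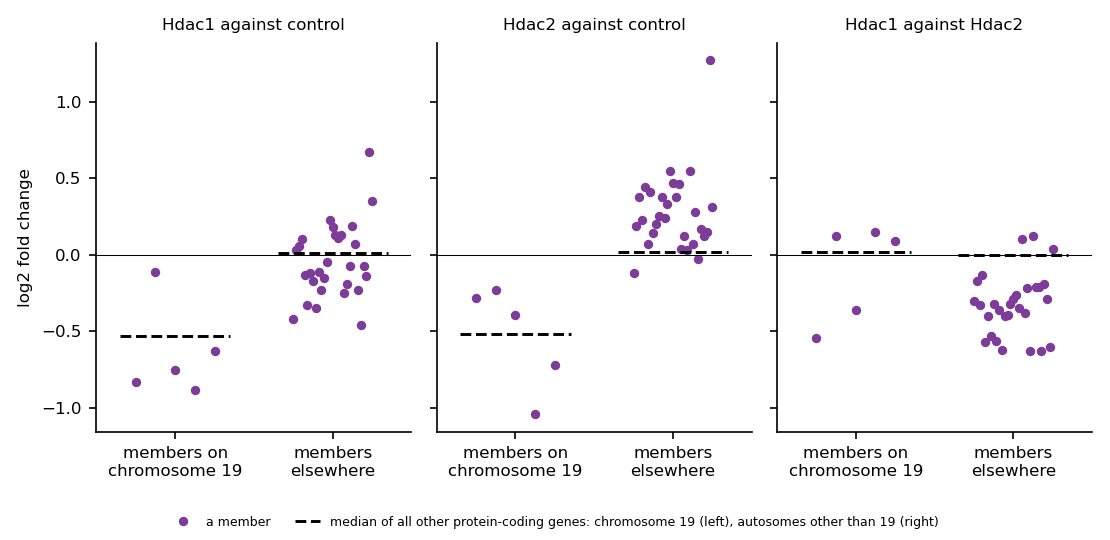
Log2 fold changes of the 5 members on chromosome 19 and the 29 elsewhere (points) in the 3 comparisons, with dashed lines at the median of the other protein-coding genes of chromosome 19 (left) and of the other autosomes (right). All 5 members on chromosome 19 lie below 0 in both mutants, where the dashed lines stand at -0.53 and -0.52, and in the direct comparison the line stands at 0.02.

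Among the 29 members on other chromosomes, 10 rose and 13 fell in Hdac1-deficient enteroids, where 32.7% of all genes tested rose and 31.9% fell. In Hdac2-deficient enteroids 22 of the 29 rose and 1, Acat2, fell, where 31.4% of all genes rose and 30.9% fell. Among the 3651 genes at least as abundant as the lowest member, the shares were 32.9% and 38.2% in Hdac1 and 39.7% and 32.6% in Hdac2. The median of the 29 was -0.07 in Hdac1 and 0.24 in Hdac2, where that of all 34 members was -0.12 and 0.20. In the direct comparison 26 of the 29 were lower in Hdac1 and 2, Srebf1 and Insig2, were higher. Over all genes 23.7% were lower and 22.3% higher, and 35.3% and 19.3% of those 3651. Nsdhl and Ebp are X-linked. Xist, the RNA of the inactive X chromosome, was at 1.408 to 1.718 CPM in control, 776.1 to 1079 in Hdac1-deficient and 494.6 to 677.2 CPM in Hdac2-deficient libraries. The paper does not give the sex of the mice. In both comparisons with control, the genotype cannot be told apart from the sex of the mouse or the state of its X chromosomes. The other X-linked protein-coding genes had medians of -0.02 and -0.04 against control.

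The pathway neighbours are 43 genes of related steps, chosen by function with earlier results of these data known, and 42 of them were tested. In Hdac1-deficient enteroids 15 rose and 17 fell, where 32.7% of all genes tested rose and 31.9% fell. In Hdac2-deficient enteroids 17 rose and 13 fell, where 31.4% of all genes rose and 30.9% fell. Between the mutants 8 were higher and 19 lower in Hdac1 (14 higher with library size alone), where 22.3% of all genes were higher and 23.7% lower. The 8 genes of SREBP processing and sterol sensing had 4 that rose and 2 that fell in Hdac1, and 1 and 1 in Hdac2. The 8 genes of the isoprenoid branches to ubiquinone, dolichol and prenylated proteins had 1 and 3 in Hdac1, and 2 and 4 in Hdac2. Among the 15 tested genes of fatty acid supply, elongation and activation, 2 rose and 10 fell in Hdac1, and 5 rose and 6 fell in Hdac2. Of the 11 genes of glycerolipid and steryl ester synthesis, 8 rose and 2 fell in Hdac1, and 9 rose and 2 fell in Hdac2, with medians of 0.53 and 0.59.

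Past 2-fold among the neighbours were Acacb and Mlxipl. Acacb, the mitochondrial isoform of acetyl-CoA carboxylase, whose malonyl-CoA restrains fatty acid oxidation, was counted at 7.004, 10.07, 7.434 and 7.396 CPM in control, 1.05, 0.9074, 0.7887 and 0.582 in Hdac1-deficient and 3.98, 3.947, 3.734 and 3.905 CPM in Hdac2-deficient libraries. The groups did not overlap. It fell by 3.24 ± 0.17 in Hdac1 (edgeR adjusted p = 2.7e-12) and by 1.02 ± 0.12 in Hdac2 (adjusted p = 1.5e-07). Mlxipl encodes ChREBP, the carbohydrate-responsive activator of lipogenic genes. It was counted at 122.4 to 142.8 CPM in control, 276.3 to 369.0 in Hdac1-deficient and 183.5 to 211.5 CPM in Hdac2-deficient libraries, and rose by 1.26 ± 0.09 and 0.57 ± 0.06 (edgeR adjusted p = 4.6e-06 and 2.9e-06).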

How the data were processed

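Per the labels, total RNA (250 ng per library) was enriched for poly(A) and sequenced as paired reads of 100 nucleotides. Alignment by the authors used STAR (2.4.0f1 in the submitters' processing notes) and GRCm38. The deposited values are raw, whole-number counts of reads per gene, in 1 table per mutant that repeats the same 4 control libraries. Genes whose counts summed to less than 10 were not listed. The counting program and its strand setting are not given in the sources used here. A rounded, normalized score for every gene in each library was deposited beside the counts, as were columns of the authors' own comparisons (log2 fold changes, average log2 CPM and p-values), and none of these were used.

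Counts were tested with edgeR 4.0.16 in R 4.3.3, by the robust quasi-likelihood F test with TMM factors and the filterByExpr filter, and adjusted by Benjamini-Hochberg over all genes tested. The comparisons with control used the 8 libraries concerned (14246 and 14007 genes), and Hdac1 was set against Hdac2 within 1 fit of the 12 libraries (14510 genes). All 34 members passed the filter. The common biological coefficients of variation were 0.0425, 0.0384 and 0.0394. SEs were taken as the log2 fold change over the root of F. Levels in CPM used TMM factors over the 12 libraries, and levels per kilobase used principal transcripts of GENCODE M21. The depth was 20693200 to 30658628 counts per library, and intervals reflect the spread between libraries. No pair of libraries agreed within sampling noise.

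The members and the lists of neighbours and markers were chosen with earlier results of these data known. Values in every library are given for members past 2-fold, for Srebf1 and Srebf2 and for the 10 others with the largest change, and neighbours are named when past 2-fold. On simulated counts with 200 changed genes, the Hdac1 fit recovered 67.3% at a log2 change of 0.3 and 100% at 1, with 14 false calls among 14222 genes. The Hdac2 fit recovered 63.3% and 100%, with 7 among 13977, and the fit of Hdac1 against Hdac2 77.6% at 0.3, 79.6% at 0.6 and 87.8% at 1, with 6 among 14411. Alternatives were DESeq2 1.42.0, size factors by relative log expression or by library size alone, other filters and thresholds, a replicate block, other sets of libraries, tests without chromosomes X, Y and 19, and tests without each single library. Similar sequences were sought with blastn, and promoters came from RefSeq. No library was left out of the main tests.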

Additional observations from a re-analysis of the deposited data

Results flagged for a closer look

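Among the 102 groups of 4 libraries (34 members in 3 groups), 2 held a library whose gap to its nearest neighbour, as a share of the group's range, exceeded Dixon's 95% limit for 4 values. Chance flags about 1 group in 20, or 5.1 of 102. Dhcr7 was lowest in Hdac2 replicate 2, at 247.7 CPM where the other Hdac2 libraries held 258.1 to 259.3. Insig1 was lowest in Hdac2 replicate 4, at 1150 CPM where the others held 1183 to 1187. Both values stayed above every control and Hdac1 library, so neither turned a direction.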

How the results depend on the processing

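Among the alternatives that kept the threshold on p, the counts of members kept their direction and stayed within 1.5 times the main count, except where given here. Leaving out each library in turn gave 8 to 10 higher and 18 to 19 lower in Hdac1 against control, 21 to 22 and 6 to 6 in Hdac2 against control, and 3 to 5 and 28 to 28 in Hdac1 against Hdac2. Tested against a 1.5-fold change, 1 member was higher and 3 were lower in Hdac1, 1 and 2 in Hdac2, and 0 and 0 between the mutants (edgeR's glmTreat, with 0 higher and 3 lower at an unadjusted p under 0.05). Past 2-fold there were 0 and 0, 1 and 1, and 0 and 0. The members that passed the 1.5-fold test as lower than control all lie on chromosome 19. They were Tm7sf2, Scd2 and Fads1 in Hdac1, and Fads1 and Fads2 in Hdac2. The other protein-coding genes of that chromosome had medians of -0.53 and -0.52. At an adjusted p of at most 0.01, 3 members were higher in Hdac1 than in Hdac2. With chromosomes X, Y and 19 left out, 27 members remained and 1 of them was lower in Hdac2 than in control, since 5 of the 6 lie on chromosome 19. The reported medians of -0.12, 0.20 and -0.32 ranged from -0.128 to -0.109, from 0.165 to 0.223 and from -0.327 to -0.292 over all alternatives. Of the values that did not pass the threshold, Scap in Hdac2 ranged from -0.01 (without Hdac2 replicate 4) to 0.06 and Acly in Hdac2 from -0.05 to 0.0 (without control replicate 2) when single libraries were left out. No source used here states that libraries of the same replicate number are paired, and their correlations lay between -0.0455 and 0.0913, which does not settle it. With the replicate block 9 members were higher and 18 lower in Hdac1, 24 and 6 in Hdac2, and 5 and 28 between the mutants. In that fit Fasn and Idi1 rose in Hdac2 (edgeR adjusted p = 0.0052 and 0.042), and the Stard4 call in Hdac1 was lost (0.095). Changes under about 0.1 on the log2 scale, as for Stard4 and Pmvk in Hdac1, are at the limit of what 4 libraries show here.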
